A study of Rattus norvegicus with 102 samples.

Results

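The dentate gyrus (DG), a subfield through which cortical input enters the hippocampus, was compared between old rats with impaired memory and young rats. All animals were male Fischer 344 rats that were tested in a water maze before tissue was taken. Of the 102 libraries of the series, which covers CA1, CA3 and DG of 34 rats, the 22 chosen here were every DG library of the 12 old impaired rats, named AI, and of the 10 young rats. AI rats were 17 to 22 months old and young rats 5 to 6 months old. The study classed an old rat as impaired where its probe trial score lay under the lowest score of the young rats. The AI and young groups therefore differ in age and in memory status together, and age and memory status cannot be told apart in this comparison. The 12 old rats with unimpaired memory, named AU and also 17 to 22 months old, are given beside the results. The labels and methods name no drug, transgene or deletion in any group, and the maze testing was common to all of them. Each DG library came from 1 rat, so the replicates are separate animals, and the rats are named below by the numbers in the labels.

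Values are normalized counts, the number of reads on a gene divided by 1 size factor for the library. Reads per DG library ranged from 4478984 to 13711224 in AI rats (median 10747594.5) and from 8263923 to 18739670 in young rats (median 9741515). Differences were tested with limma on log2(normalized count + 1), two-sided, with Benjamini-Hochberg adjustment over the 16203 genes that had a mean normalized count of 5 or more, and a gene counts as changed at an adjusted p under 0.05. A log2 difference is always AI minus young unless another pair is named, and it is given with its standard error (SE). The tissue was dissected in bulk, so that fewer cells of a type and less RNA per cell cannot be told apart. Rats carry identifiers of 2 kinds, those of an R9 series (5 AI and 5 young rats) and those of an R1-R2 series (7 AI and 5 young rats), and the labels do not say what separates the series. The study tested its rats at 2 sites, whose stated numbers of young and aged rats equal those of the series, but no label ties a rat to a site, and the part of the site in the results was not tested. Results are therefore also given within each series.

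DG is identified by its granule neurons, and the label was checked with marker scores, each the mean of centered log2 values over a list of marker genes. The granule neuron score was the highest of the DG, CA1 and CA3 scores in 11 of 12 AI libraries and in 9 of 10 young libraries. It ranged from -1.01 to 1.30 in AI rats (median 1.01) and from -0.386 to 1.29 in young rats (median 1.11). The library of AI rat R9781 had the lowest granule score and that of young rat R9881 the next, and in both the CA3 and CA2 score was higher. Prox1, the transcription factor of granule neurons, was at 180.8, 871.6 and 1240 normalized counts in AI rats (lowest, median and highest) and at 307.8, 1027 and 1949 in young rats. Young rat R9881 also held the highest level of Ttr, the transthyretin made by choroid plexus, at 4296 normalized counts against a young median of 134.2. These 2 libraries thus went against their label by this measure, and results are given with and without them.

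**Figure D1:**
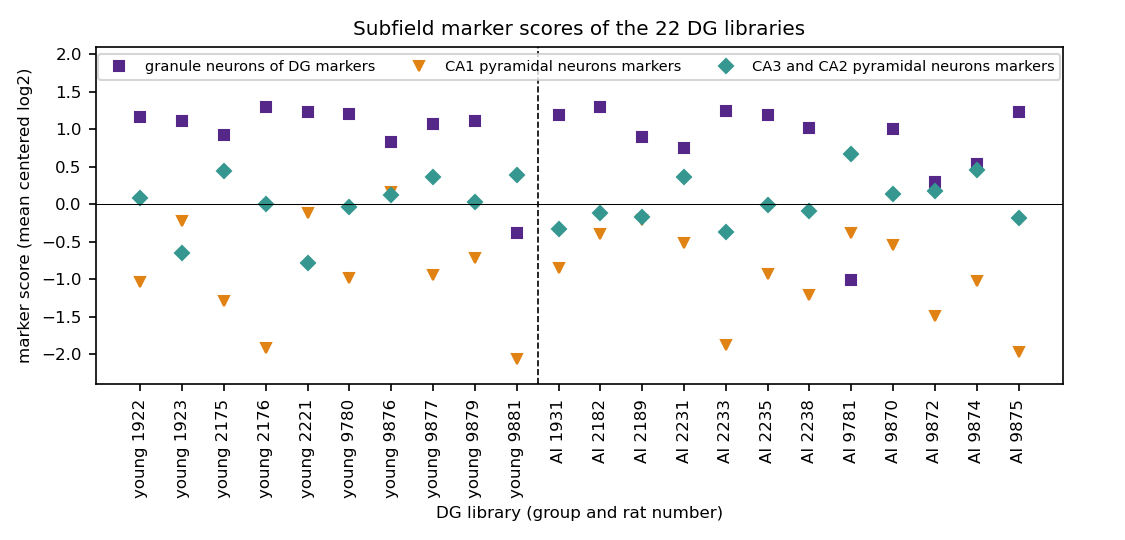
Marker scores (mean centered log2 value, y axis) for granule neurons of DG, CA1 pyramidal neurons and CA3 and CA2 pyramidal neurons in each of the 22 DG libraries (x axis, young rats left of the dashed line). The granule score is the highest of the 3 in all libraries but those of young rat R9881 and AI rat R9781.

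Much of what is known of the ageing hippocampus concerns glia. Microglia, the resident macrophages of the brain, clear debris, take up opsonised material through complement and Fc receptors and break it down in lysosomes. Major histocompatibility complex (MHC) class II molecules carry peptides from that pathway to the cell surface for CD4 T cells. Each is a pair of an alpha and a beta chain, called RT1-B and RT1-D in the rat, and it is assembled on the invariant chain Cd74 and then loaded with the help of RT1-DM. The class II genes are switched on together through a set of promoter boxes, the last of which is an inverted CCAAT box bound by NF-Y.

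Promoter stretches of the 5 class II genes with the largest differences are shown, since such genes are known to share promoter boxes. The sequences are from RefSeq on build GRCr8, written 5′ to 3′ on the strand of the gene and ending at the base before the start site. RT1-Ba lies at chr20:4576937-4577056 on the plus strand, RT1-Bb at chr20:4604119-4604238 on the minus strand and RT1-Da at chr20:4515295-4515414 on the plus strand. RT1-Db1 lies at chr20:4560163-4560282 on the minus strand and Cd74 at chr18:56527006-56527205 on the plus strand. Capitals mark CCAAT, or ATTGG where the match is on the other strand.
RT1-Ba: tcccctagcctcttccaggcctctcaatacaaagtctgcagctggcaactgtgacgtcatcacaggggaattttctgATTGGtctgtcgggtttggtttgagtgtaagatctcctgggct
RT1-Bb: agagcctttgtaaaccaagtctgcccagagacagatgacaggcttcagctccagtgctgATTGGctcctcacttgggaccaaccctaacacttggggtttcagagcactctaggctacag
RT1-Da: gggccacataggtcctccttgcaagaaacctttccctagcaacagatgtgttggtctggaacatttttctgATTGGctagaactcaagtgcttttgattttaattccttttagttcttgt
RT1-Db1: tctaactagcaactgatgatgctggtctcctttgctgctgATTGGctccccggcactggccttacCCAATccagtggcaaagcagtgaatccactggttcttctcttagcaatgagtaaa
Cd74: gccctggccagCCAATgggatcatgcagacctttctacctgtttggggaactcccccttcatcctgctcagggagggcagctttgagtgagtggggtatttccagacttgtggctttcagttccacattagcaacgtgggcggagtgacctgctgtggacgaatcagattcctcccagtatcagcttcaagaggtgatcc

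The match in RT1-Ba, RT1-Bb and RT1-Da is the inverted form, and it starts 43, 61 and 49 bases before the start site. RT1-Db1 has an inverted match 80 bases before the start and a forward match 55 bases before it. In Cd74 the match is forward and farther away, 189 bases before the start. Of the 10 class II genes with a promoter entry, all 10 held CCAAT on either strand in the 250 bases before the start, and 34.3% of all 27457 promoters did. A match describes these letters only and is no measure of binding.

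In DG, 2 genes rose in AI rats and none fell. They were Cdh1, the adhesion molecule E-cadherin, and RT1-Ba, the alpha chain of the class II molecule RT1-B. The 2 genes are 0.0123% of those tested. With limma, 0 genes were lower at the threshold and 457 (2.82%) were lower at an unadjusted p under 0.05, beside 640 (3.95%) that were higher. On the reads themselves, edgeR called 7 genes higher (0.0432%), namely RT1-Ba, Cd74, Cdh1, RT1-Db1, RT1-Da, Ctsz and Ifi27, and 0 lower, with 724 (4.47%) and 452 (2.79%) at an unadjusted p under 0.05. DESeq2 called 17 higher (0.105%) and 2 lower (0.0123%), with 846 (5.22%) and 477 (2.94%) at an unadjusted p under 0.05. The median log2 difference over all genes was -0.01. With limma, leaving out 1 library gave between 1 and 10 genes higher and 0 lower, and the count was 10 without AI rat R2233, 7 without AI rat R1931 and 3 without AI rat R2235. The library of R2233 had the fewest reads of the 22 (4478984) and the fewest genes above 0 (17507). That of R1931 had the most reads of the AI rats (13711224). The part of read depth in these counts was not tested.

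Cdh1 was at 19.68, 40.48 and 62.31 normalized counts in AI rats (lowest, median and highest) and at 0, 5.62 and 21.87 in young rats. In 11 of 12 AI rats it stood above the highest young rat, and AI rat R1931 was the exception. The log2 difference was 2.68 (SE 0.40, adjusted p = 0.0076 with limma), which is 6.39-fold on the log2(value + 1) scale. Among the R9 rats, AI ranged from 41.59 to 62.31 and young from 1.109 to 21.87. Among the R1-R2 rats, AI ranged from 19.68 to 42.95 and young from 0 to 15.19. The groups thus did not overlap within either series. The call held whichever library was left out, with log2 differences from 2.39 to 2.89. Without AI rat R9781 and young rat R9881 the difference was 2.83 (adjusted p = 0.0073 with limma). Fitted within 1 series, it did not pass (adjusted p = 0.327 in R9 and 0.394 in R1-R2 with limma). Of the 18 cadherins tested, Cdh1 alone passed the threshold. Cdh23, a component of hair cell tip links, also had an unadjusted p under 0.05, with 0.65 (SE 0.14, adjusted p = 0.165 with limma), and the list's median log2 difference was 0.03.

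RT1-Ba was at 17.5, 86.3 and 159.4 normalized counts in AI rats and at 3.99, 13.8 and 28.3 in young rats. The log2 difference was 2.34 (SE 0.40, adjusted p = 0.0301 with limma), and 9 of 12 AI rats stood above the highest young rat. Within the R9 series AI ranged from 94.0 to 159.4 against 11.1 to 28.3 in young, and within the R1-R2 series from 17.5 to 87.4 against 3.99 to 15.2. The medians were higher in R9 than in R1-R2 rats of either group, and the overlap of the pooled groups came from R1-R2 AI rats against R9 young rats. The call was less stable than that of Cdh1, since it held in 7 of the 22 fits that left out 1 library (adjusted p from 0.00635 to 0.0993). The log2 difference in those fits was 2.19 to 2.50, and without AI rat R9781 and young rat R9881 it was 2.35 (adjusted p = 0.0379 with limma).

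The other chains of the class II molecules had differences of the same size that missed the threshold with limma. Cd74, the invariant chain, was at 102.8, 418.6 and 835.2 normalized counts in AI rats and at 19.5, 93.4 and 175.4 in young rats, a log2 difference of 2.11 (SE 0.40, adjusted p = 0.0673 with limma). RT1-Da, the alpha chain of RT1-D, was at 23.9, 104.7 and 228.4 against 5.01, 20.8 and 43.0, a difference of 2.17 (SE 0.43, adjusted p = 0.0878 with limma). The beta chains RT1-Db1 and RT1-Bb differed by 2.17 (SE 0.46) and 2.15 (SE 0.49), with adjusted p of 0.135 and 0.178 with limma. Each of these 4 genes had 8 to 11 AI rats above the highest young rat. The lowest AI values were in the same few R1-R2 rats: R2233, R1931 and R2235 were the 3 lowest AI rats for both RT1-Ba and Cd74.

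RT1-DMa and RT1-DMb, the chains of the molecule that exchanges peptides on class II, had smaller differences than the presenting chains. RT1-DMb was at 12.7, 23.1 and 59.5 normalized counts in AI rats and at 10.7, 17.9 and 28.5 in young rats, a log2 difference of 0.46 (SE 0.24, unadjusted p = 0.0617). RT1-DMa is listed under 2 identifiers, with log2 differences of 0.17 (SE 0.25) and 0.08 (SE 0.22). Over the 8 class II identifiers tested, all 8 differences were above 0, 5 (62.5%) had an unadjusted p under 0.05, and the median was 2.13. Of all genes, 3.95% were higher and 2.82% lower at that level. RT1 genes resemble each other, and reads shared between them may have been split in the counting.

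Within the series, Cd74, RT1-Da, RT1-Ba, RT1-Bb and RT1-Db1 showed no overlap between AI and young rats in R9, and Cd74, RT1-Da and RT1-Ba showed none in R1-R2 either. Across all genes, 110 (0.679%) had every AI library above every young library in R9 and 20 (0.123%) in R1-R2. In both series at once this held for 5 of 16203 genes (0.0309%), and for 0 genes in the other direction. The 5 were Cdh1, RT1-Ba, Cd74, RT1-Da and Arl11, a count made after the values were seen. Arl11, a small GTPase related to ADP-ribosylation factors, was at 34.97, 49.63 and 103.5 normalized counts in AI rats and at 9.852, 30.34 and 47.91 in young rats (log2 difference 0.85, SE 0.22, adjusted p = 0.341 with limma).

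Fitted alone, the 10 R9 rats gave 5 higher genes, which were the same 5 class II genes, and 1 lower gene, Col11a1. The adjusted p-values with limma in R9 were 6.4e-06 for Cd74, 8.44e-05 for RT1-Da, 9.93e-05 for RT1-Db1, 0.000299 for RT1-Ba and 0.00133 for RT1-Bb. The log2 differences were 2.40, 2.50, 2.89, 2.66 and 2.58. In the 12 R1-R2 rats, limma gave 0 genes past the threshold in either direction and 535 at an unadjusted p under 0.05, and the log2 differences of those 5 genes lay between 1.79 (RT1-Db1) and 2.29 (RT1-Ba). The difference between the series was tested directly as an interaction. For the 5 class II genes its unadjusted p ran from 0.12 to 0.58, and over all genes limma called 0, with 156 (0.963%) larger in R9 and 173 (1.07%) smaller at an unadjusted p under 0.05, and edgeR called 0. With the series as a covariate, 8 genes were higher (0.0494%), namely RT1-Da, Cd74, RT1-Ba, Cdh1, RT1-Bb, RT1-Db1, C3 and Ifi27, and 731 (4.51%) were higher and 492 (3.04%) lower at an unadjusted p under 0.05.

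**Figure D2:**
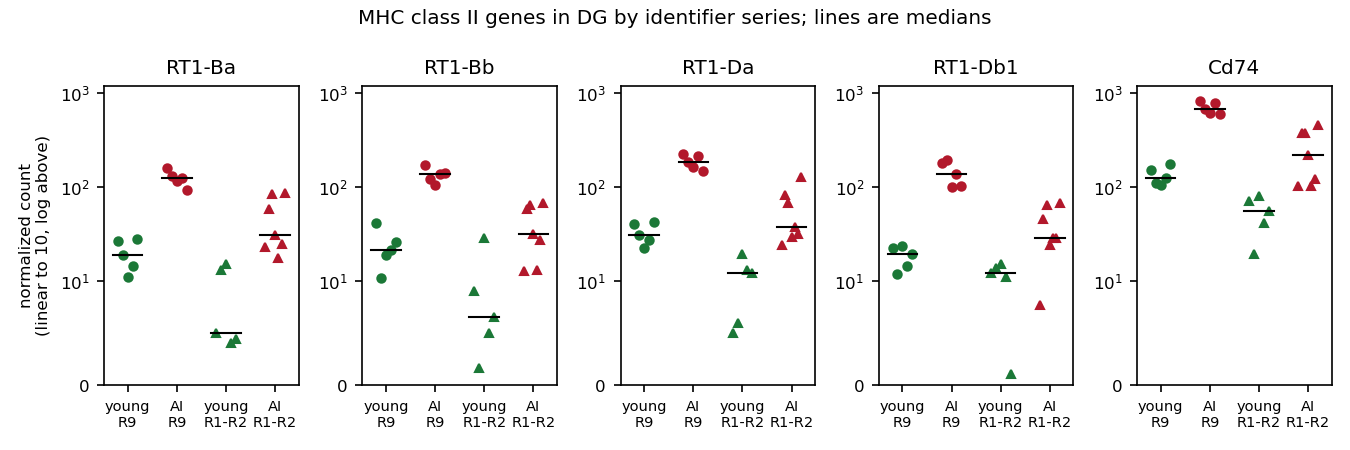
Normalized counts (y axis, linear to 10 and logarithmic above) of 5 class II genes in young and AI rats of each identifier series (x axis), 1 point per DG library, with lines at the medians. AI points lie above all young points of their own series in every R9 panel, and in the R1-R2 panels of RT1-Ba, RT1-Da and Cd74.

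T cells and B cells, which meet or carry class II molecules, were examined through their markers. Of 15 T and NK cell markers in the table, 12 had a median under 5 normalized counts in both groups. Cd3d, a chain of the T cell receptor complex, and Cd8b, the CD8 beta chain, had medians of 0 in AI and in young rats. Of 9 B and plasma cell markers, 7 had both medians under 5, and Cd79a, a chain of the B cell receptor, was at 0 in every AI library. The remaining T cell markers, Trac, Lck and Zap70, overlapped between the groups. Cd3e, another chain of the T cell receptor complex and 1 of those 12, had medians of 0.416 in AI and 0.984 in young rats. It reached 48.9 and 41.6 in single rats. The T cell receptor constant gene Trac had medians of 7.36 and 4.87, and Lck had 16.1 and 16.8. Zap70, a kinase of T cell receptor signalling, had medians of 28.4 and 19.3, and Cd22, a B cell lectin, 51.3 and 40.6. Of the T, NK, B and plasma cell markers tested, none had an unadjusted p under 0.05 with limma. The summed level of the 5 T and NK markers tested ranged from 36.6 to 102.3 in AI and from 44.1 to 84.3 in young rats.

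Markers of resident microglia were mostly higher in AI rats. Of 19 homeostatic microglia genes, 18 differences were above 0, 10 (52.6%) had an unadjusted p under 0.05 higher in AI and 0 lower, and the median log2 difference was 0.32. Of all 16203 genes, 7895 differences were above 0. At that level 3.95% of all genes were higher and 2.82% lower, the shares to set beside this and the following lists. None passed the threshold with limma, and edgeR and DESeq2 called none of the genes of that list either. Their summed level ran from 5203 to 8527 normalized counts in AI rats (median 6753) and from 4542 to 6986 in young rats (median 5471). Trem2, a lipid-sensing receptor, was at 115.7, 168.3 and 314.9 in AI and at 76.5, 122.4 and 147.1 in young rats, and 10 of 12 AI rats stood above the highest young rat. Its log2 difference was 0.58 (SE 0.15, adjusted p = 0.307 with limma). Tyrobp, the signalling adaptor of Trem2, differed by 0.61 (SE 0.18) and P2ry12, the ADP receptor of surveying microglia, by 0.45 (SE 0.13). By contrast Aif1, the calcium-binding protein IBA1 by which microglia are usually stained, was at 150.3, 230.1 and 317.7 in AI and at 102.9, 221 and 333.2 in young rats, a difference of 0.03 (SE 0.16). AI rat R2233 held the lowest AI value of P2ry12 (107.2), of the microglial membrane protein gene Tmem119 (181.5), of Cd74 (102.8) and of RT1-Ba (17.5). The part of microglia in the class II result was not tested.

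Genes of phagocytes were examined beside those of microglia, and none passed the threshold with limma. Of 28 phagocyte receptor and activation genes tested, 12 (42.9%) had an unadjusted p under 0.05 higher in AI and 0 lower, with a median log2 difference of 0.38. Gpnmb, a glycoprotein of lipid-laden phagocytes, was at 63.4, 200.1 and 296.6 normalized counts in AI rats and at 46.1, 80.9 and 168.6 in young rats (log2 difference 1.09, SE 0.24, adjusted p = 0.145 with limma). Its highest young value belonged to rat R9881, and without rats R9781 and R9881 the difference was 1.17. Ncf4 and Cyba, parts of the phagocyte NADPH oxidase, differed by 0.92 (SE 0.28) and 0.68 (SE 0.23). Cd68, a lysosomal glycoprotein of macrophages, was low in both groups, with 4.92, 18.6 and 33.5 in AI and 8.76, 14.5 and 25.5 in young rats. Apoe, the main lipid carrier of brain, reached 63760 in AI rat R2189, while the other AI rats and all young rats lay between 19610 and 36630 (log2 difference 0.28, SE 0.14). Further genes of the macrophage lineage were named after their values were seen. Spi1, the transcription factor PU.1, differed by 0.69 (SE 0.15), Adgre1, the F4/80 receptor, by 0.59 (SE 0.12) and Pycard, the inflammasome adaptor ASC, by 0.84 (SE 0.20). DESeq2 called all 3 of them, and limma gave adjusted p-values of 0.139, 0.135 and 0.234.

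Complement tags synapses and debris for uptake, and its genes differed mostly one way. Of 20 complement identifiers tested, 10 (50%) had an unadjusted p under 0.05 higher in AI and 0 lower, with a median log2 difference of 0.41. None passed the threshold with limma. C4b was at 47.8, 80.5 and 166.9 normalized counts in AI rats and at 26.1, 45.1 and 60.2 in young rats, and 10 of 12 AI rats stood above the highest young rat. Its log2 difference was 1.003 (SE 0.21, adjusted p = 0.12 with limma). C4a, a near copy of C4b with which reads may have been shared, differed by nearly the same amount (SE 0.25). C3, on which all complement pathways converge, was at 470.2, 1012 and 1549 in AI and at 245.5, 540.9 and 971 in young rats, a difference of 0.95 (SE 0.25). The 3 chains of C1q, which starts the classical pathway and is made by microglia, had differences of similar size. C1qa differed by 0.50 (SE 0.15), C1qb by 0.41 (SE 0.13) and C1qc by 0.53 (SE 0.14), and for C1qa 9 of 12 AI rats stood above the highest young rat while AI rat R2233 was below the lowest.

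Lysosomal genes differed mostly one way, and none passed the threshold with limma. Of 35 tested, 33 differences were above 0, 12 (34.3%) had an unadjusted p under 0.05 higher in AI and 0 lower, and the median log2 difference was 0.18. Ctsz, the carboxypeptidase cathepsin Z, was at 91.9, 223.2 and 424.4 normalized counts in AI rats and at 98.5, 129.1 and 140.3 in young rats. All AI rats but R2233 stood above the highest young rat. AI rat R2233, whose library had the fewest reads, was below the lowest. The log2 difference of Ctsz was 0.80 (SE 0.17, adjusted p = 0.135 with limma), and edgeR and DESeq2 both called it. Npc2, which moves cholesterol out of lysosomes, differed by 0.52 (SE 0.14), and the progranulin gene Grn by 0.35 (SE 0.11). Tpp1, a lysosomal peptidase, differed by 0.25 (SE 0.08) with all 12 AI rats above the young median of 821.6. The CLEAR box GTCACGTG, through which TFEB acts on lysosomal genes, was in 6 of 26 promoters of the list (23.1%) and in 1.78% of all promoters.

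**Figure D3:**
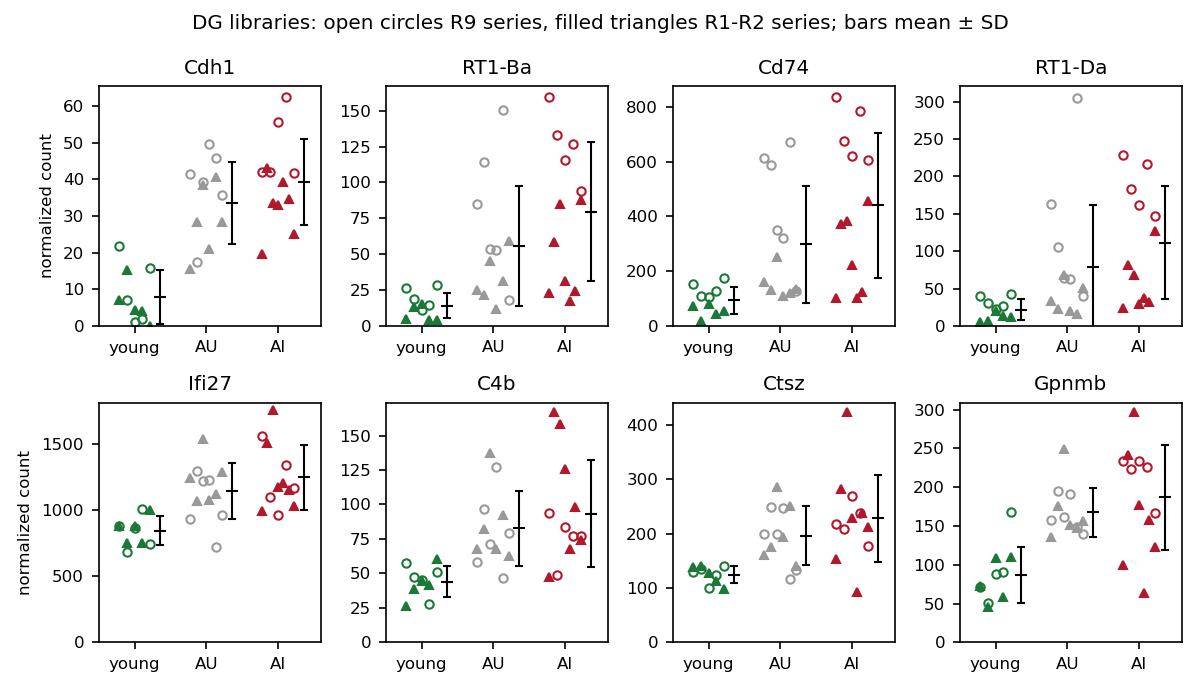
Normalized counts (y axes, from 0) of 8 genes in the DG libraries of young, AU and AI rats, 1 point per rat, with bars for the mean and SD of each group (10, 12 and 12 rats). AI and young rats are farthest apart for Cdh1, RT1-Ba, Cd74 and RT1-Da, and AU rats overlap with AI rats in all panels.

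Among the genes of the type I interferon response, Ifi27 had the smallest p. Ifi27, a small mitochondrial and membrane protein induced by interferon, was at 965.6, 1172 and 1761 normalized counts in AI rats and at 684.3, 870.4 and 1012 in young rats, and 10 of 12 AI rats stood above the highest young rat. The log2 difference was 0.55 (SE 0.10, adjusted p = 0.0673 with limma), and edgeR and DESeq2 called it. Of the 31 interferon genes tested, 3 had an unadjusted p under 0.05 higher in AI (Ifi27, Irf1 and Irf7) and 0 lower. The share higher was 9.68%, beside 3.95% of all genes. The list's median log2 difference was 0.23 over all rats, -0.01 within R9 and 0.28 within R1-R2. The promoter of Ifi27 is shown because it holds the interferon response element core, GAAANNGAA, at 2 places that start 169 and 84 bases before the start site. This core was in 15 of 23 promoters of the list (65.2%) and in 7.99% of all promoters. The stretch lies at chr6:128355132-128355311 on the plus strand of GRCr8, from RefSeq, with the matches in capitals.
Ifi27: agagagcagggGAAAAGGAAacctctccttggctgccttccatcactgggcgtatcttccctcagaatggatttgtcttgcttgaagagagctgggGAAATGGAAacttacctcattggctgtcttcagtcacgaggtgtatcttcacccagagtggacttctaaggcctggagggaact

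MHC class I, which shows peptides from the cytosol, had no gene past the threshold with limma. Of 23 class I and peptide loading genes tested, 8 (34.8%) had an unadjusted p under 0.05 higher in AI and 0 lower, and the median log2 difference was 0.30. Psmb9, a subunit of the immunoproteasome, was at 14.0, 35.0 and 71.3 normalized counts in AI and at 5.55, 20.3 and 25.1 in young rats, a difference of 0.93 (SE 0.29). Tap1, a chain of the peptide pump of the endoplasmic reticulum, differed by 0.57 (SE 0.24). B2m, the light chain common to class I molecules, had a median of 2690 in AI and 2426 in young rats with overlapping ranges, a difference of 0.15 (SE 0.13).

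Among astrocyte genes the intermediate filament had the smallest p. Gfap, that filament protein, was at 12850, 15660 and 30560 normalized counts in AI rats and at 9530, 10920 and 15190 in young rats, with 8 of 12 AI rats above the highest young rat. Its log2 difference was 0.56 (SE 0.13, adjusted p = 0.234 with limma), and DESeq2 called it. Of 15 reactive astrocyte genes 4 (26.7%) had an unadjusted p under 0.05 higher in AI and 0 lower, with a median of 0.24. Of 16 general astrocyte markers 2 (12.5%) did, with a median of 0.06, beside 3.95% of all genes.

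Few neuronal genes had a small p, and the medians of several neuronal lists were under that of all genes. Of 15 granule neuron markers tested, 12 differences were under 0, none had an unadjusted p under 0.05 with limma, and the median log2 difference was -0.15. That median moved when 1 of the 2 libraries with weak granule scores was left out alone. It was -0.00087 without AI rat R9781, -0.299 without young rat R9881 and unchanged at -0.15 without both. It was -0.40 in R9 alone, -0.08 in R1-R2 alone and 0.11 for AU minus young. Calb1, the calcium buffer calbindin, was at 403.6, 629.5 and 1302 normalized counts in AI and at 434.6, 970.3 and 1147 in young rats (log2 difference -0.25, SE 0.20). No gene passed an unadjusted p under 0.05 with limma among 22 glutamate receptors, 37 synaptic vesicle and scaffold genes and 24 activity-dependent genes, whose medians were -0.01, 0.03 and -0.03. Among 12 GABA receptor genes none did either, with a median of -0.11. Of 32 calcium channels, pumps and sensors, 24 differences were under 0 and the median was -0.09. At an unadjusted p under 0.05, 1 of them was higher (Orai1, a store-operated channel) and 1 lower (Camk4, a nuclear kinase), a share of 3.125% in each direction and near that of all genes, 3.95% and 2.82%. Without AI rat R9781 and young rat R9881, 2 granule markers, 3 glutamate receptors and 3 calcium genes were lower at that level with limma. All genes had 2.72% lower in that fit. Higher were 1 calcium gene, 0 granule markers and 0 glutamate receptors. GABA receptor, synaptic and activity-dependent genes had 0 in either direction.

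DG keeps making granule neurons in adult life, and markers of those young cells were examined for the age contrast. Of 17 immature granule neuron genes, 2 (11.8%) had an unadjusted p under 0.05 lower in AI and 0 higher, with a median log2 difference of -0.10. Of all genes 2.82% were lower at that level. Dcx, the microtubule protein doublecortin that marks newborn neurons, was at 136.9, 316.8 and 438.2 normalized counts in AI rats and at 185, 350 and 616.8 in young rats. The groups overlapped, and the difference was -0.36 (SE 0.20, unadjusted p = 0.0885). Stmn2, a tubulin-binding protein of growing axons, was at 3552, 4831 and 5652 in AI and at 3569, 5634 and 6472 in young rats (-0.22, SE 0.10). Of 18 cell division genes and 13 neural stem cell genes none had an unadjusted p under 0.05 with limma, and the medians were -0.04 and 0.07.

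On the lower side, no gene passed the threshold with limma over all rats. Slc26a7, an anion exchanger, was at 0.916, 5.33 and 13.1 normalized counts in AI rats and at 7.75, 15.0 and 27.9 in young rats, and 9 of 12 AI rats lay under the lowest young rat. The log2 difference was -1.50 (SE 0.35, adjusted p = 0.234 with limma), and DESeq2 called it. Col11a1, a fibrillar collagen chain, was at 42.6, 168.9 and 374 in AI and at 226.5, 324.9 and 499.1 in young rats (log2 difference -1.07, SE 0.26, adjusted p = 0.244 with limma). It passed in the R9 series alone (-1.19, adjusted p = 0.0331 with limma), and the R1-R2 value was -0.96. Tspan18, a tetraspanin, differed by -0.63 (SE 0.15), with -0.25 in R9 and -0.90 in R1-R2, and the difference between the series had an unadjusted p of 0.021. These 3 genes were named after their values were seen.

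**Figure D4:**
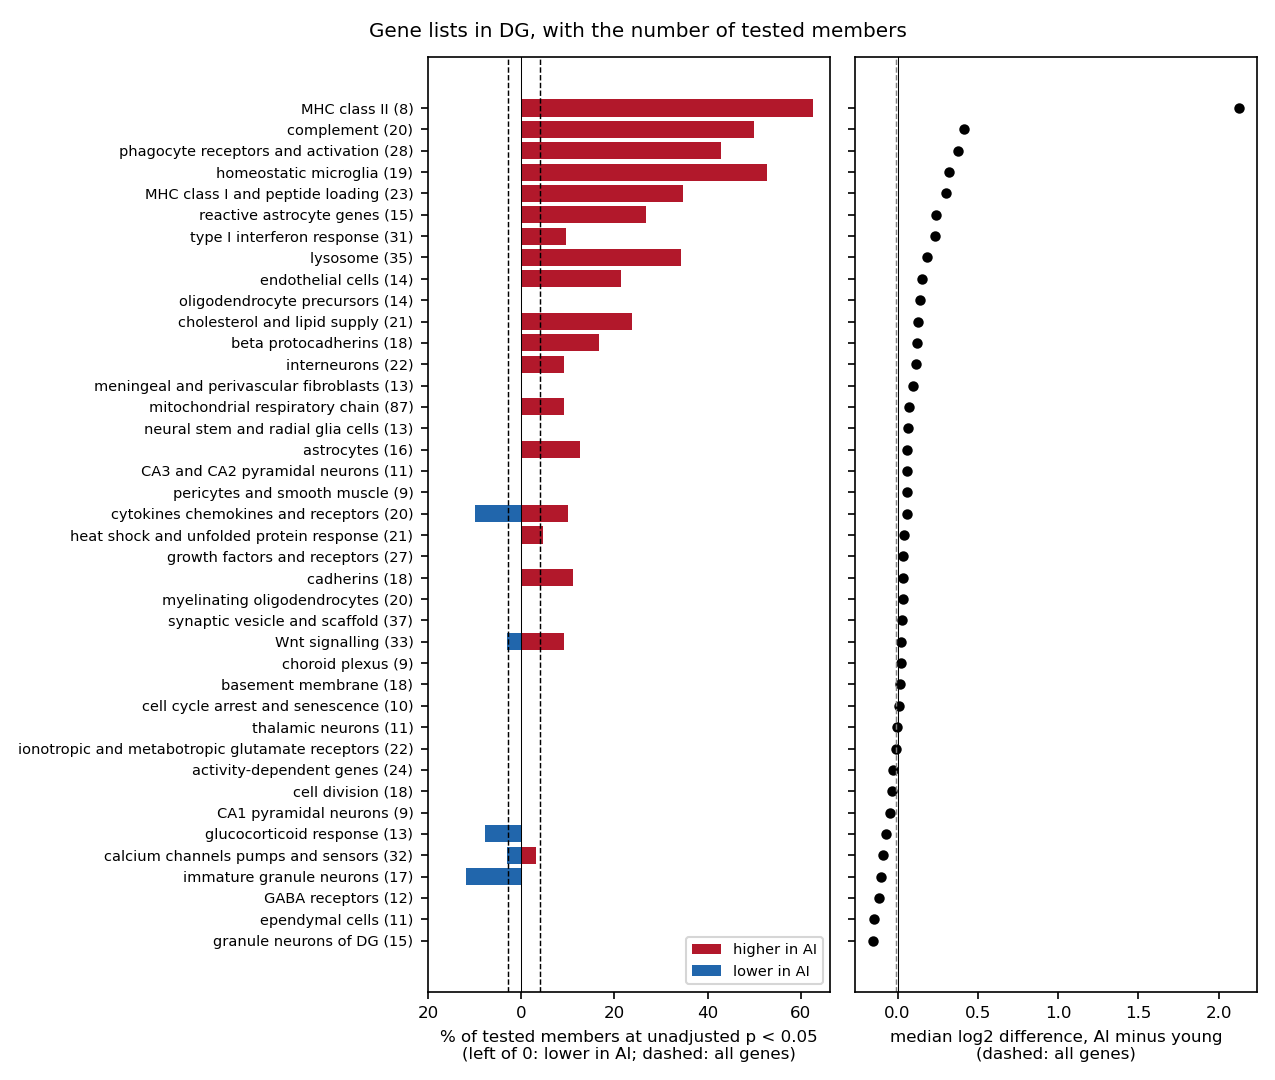
For each gene list with at least 8 tested members, apart from the study's own lists (y axis, number of tested members in brackets), the percent of members at an unadjusted p under 0.05 (left panel, higher in AI to the right of 0 and lower in AI to the left) and the median log2 difference (right panel), with dashed lines for all genes. MHC class II, complement, phagocyte and microglia lists have the largest medians of the lists drawn, and the granule neuron list lies to the left of the dashed line.

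Old rats without memory impairment were set beside the impaired ones. In 1 of 12 AU libraries, that of R9865, the granule score (-0.0029) was under the CA1 score (0.302), and this library was kept. AU and AI rats were compared with the same 10 young libraries, so their differences are not independent and are given side by side. In AU rats 2 genes rose (0.0123%), Cdh1 by 2.43 and Gpnmb by 1.02 on the log2 scale (adjusted p = 0.024 for each with limma). With limma 0 genes fell, and 486 (3%) were lower at an unadjusted p under 0.05, beside 532 (3.28%) higher. RT1-Ba differed by 1.80 in AU and 2.34 in AI rats, Cd74 by 1.56 and 2.11, and RT1-Da by 1.56 and 2.17. C3 differed by 0.79 and 0.95, Trem2 by 0.55 and 0.58, and Ifi27 by 0.42 and 0.55. The median of the class II list was 1.56 in AU and 2.13 in AI rats, that of homeostatic microglia 0.20 and 0.32, and that of complement 0.31 and 0.41.

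The direct test between old rats, AI against AU in DG, called 0 genes in either direction with limma, edgeR and DESeq2. At an unadjusted p under 0.05, limma had 144 genes higher (0.89%) and 143 lower (0.884%) in AI. AI minus AU was 0.25 for Cdh1 (unadjusted p = 0.22), 0.54 for RT1-Ba (0.19), 0.55 for Cd74 (0.17) and 0.61 for RT1-Da (0.18). Spi1 was higher in AI by 0.41 (unadjusted p = 0.044 with limma) and Adgre1 by 0.29 (0.013), and neither passed adjustment. Both had been named after their values in these AI libraries were seen, so these p-values are not a fair test between old rats. A miss of the threshold does not show that AI and AU rats were alike.

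The DG difference was also set against CA1 and CA3 of the same rats. By the same marker scores, the own subfield was not highest in 1 of 12 CA1 and 3 of 12 CA3 libraries of AI rats. In young rats this held for 0 of 10 CA1 and 2 of 10 CA3 libraries. All of these libraries were kept, and their part in the CA1 and CA3 values was not tested. Limma called 0 genes between AI and young rats in CA1, with 409 higher (2.52%) and 361 lower (2.23%) at an unadjusted p under 0.05, and 0 in CA3, with 151 (0.932%) and 249 (1.54%). The DG difference beyond the mean of CA1 and CA3, tested within rats on 16385 genes, gave 0 calls with limma, and 493 genes larger in DG (3.01%) and 346 smaller (2.11%) at an unadjusted p under 0.05. Class II genes differed in the same direction in the 3 subfields: RT1-Da had 2.17 in DG, 1.66 in CA1 and 1.72 in CA3, and RT1-Bb had 2.15, 1.44 and 2.05. Cdh1 had 2.68, 2.20 and 0.59, and the DG excess of 1.28 had an unadjusted p of 0.018. Ifi27 had 0.55 in DG against 0.09 in CA1 and -0.03 in CA3, and its DG excess of 0.52 had the smaller unadjusted p of 0.0024 with limma. Cdh1 and Ifi27 were named for their small p in DG, so the p-values of their DG excess are not independent of that choice. Wnt3, a Wnt ligand, differed by 1.17 in DG (SE 0.28, adjusted p = 0.244 with limma), -0.01 in CA1 and 0.82 in CA3. In the study Wnt3 was the top gene for higher expression in CA1 than in the other subfields. The CA1 score of the DG libraries had medians of -0.890 in AI and -0.961 in young rats. The part of CA1 tissue in the Wnt3 difference was not tested.

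**Figure D5:**
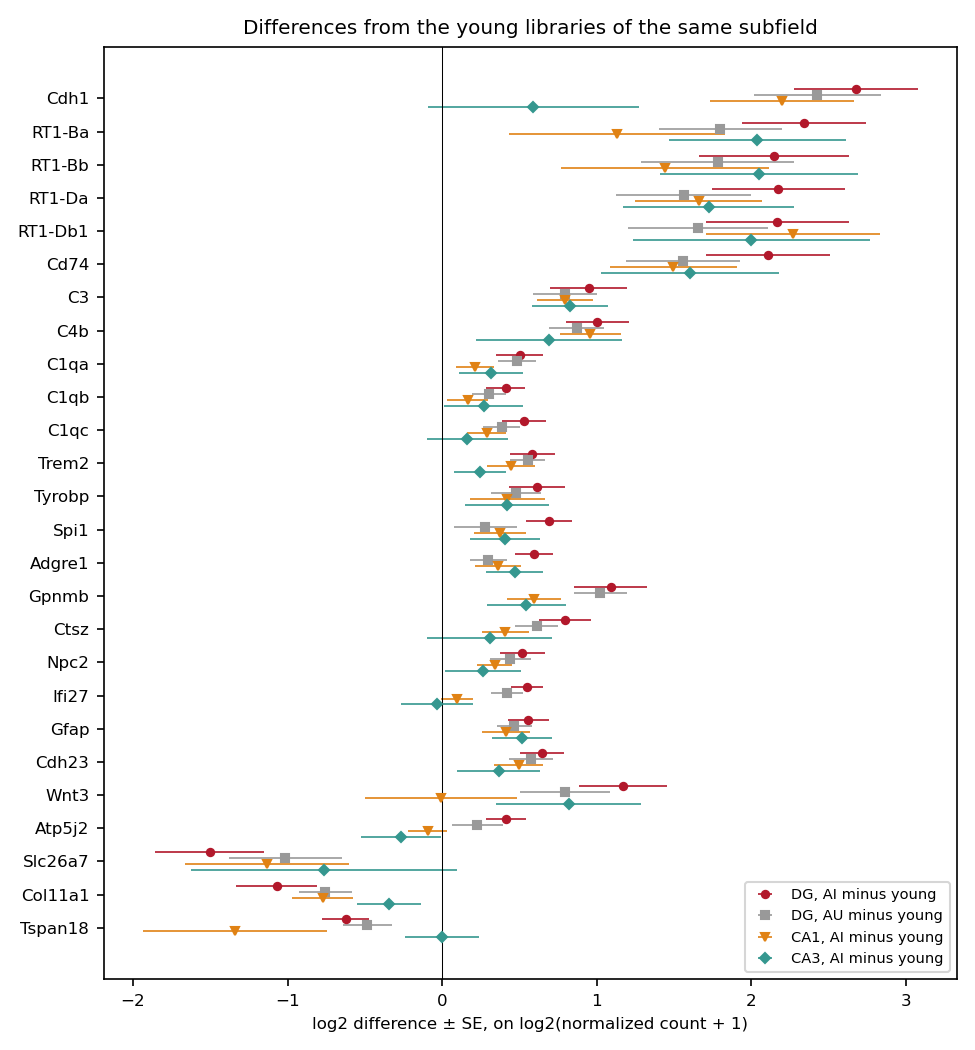
Log2 differences with SE bars (x axis) from the young libraries of the same subfield for 26 genes (y axis), for AI rats in DG, CA1 and CA3 and for AU rats in DG. The class II genes and Cdh1 are the farthest from 0 in DG, and for Ifi27 the CA1 and CA3 values lie near 0.

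The gene lists that the study itself drew from these rats were examined last, and because they were chosen on these samples they are not independent evidence of direction. Of 24 genes listed as raised with age in all subfields, 21 (87.5%) had an unadjusted p under 0.05 higher in AI and 0 lower, with a median log2 difference of 0.56. Of all genes, 3.95% were higher and 2.82% lower at that level. The list holds Cdh1, the 1 gene of it past the threshold, and many genes already described. Of 17 genes listed as raised in impaired DG, 15 were tested. At an unadjusted p under 0.05, 3 of these (20%, beside 3.95% of all genes) were higher: Prl, Loxl1 and Copz2. Prl, the pituitary hormone prolactin, was at 0 in all 10 young rats and in 5 of 12 AI rats, with a highest AI value of 63.4 in rat R2233. Prl passed the filter on the mean only through AI rats, so it could only come out higher and its count is no support. It was above 0 in 6 of 7 AI rats of the R1-R2 series and 1 of 5 of R9. Its fitted difference, whose size depends on the pseudocount since the young are at 0, was 1.98 in DG, 2.17 in CA1 and 2.30 in CA3. Loxl1, an elastin cross-linking enzyme, differed by 0.57 (SE 0.20) and Copz2, a coat protein subunit, by 0.51 (SE 0.22). Of 13 genes listed as lowered in impaired DG, 12 were tested. Zfp354c (-0.37, SE 0.13) and Dclk3 (-0.54, SE 0.22), 16.7% of these beside 2.82% of all genes, were lower at an unadjusted p under 0.05.

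Without AI rat R9781 and young rat R9881, limma again called 2 genes higher and 0 lower, with 708 (4.37%) and 441 (2.72%) at an unadjusted p under 0.05. Counts at an unadjusted p under 0.05 were then 10 of 19 for homeostatic microglia, 12 of 28 for phagocyte genes, 12 of 20 for complement, 5 of 8 for class II and 14 of 35 for lysosome. Blood markers were also examined, and none passed the threshold with limma. Of the 4 tested, Hba-a2, an alpha globin, was at 239.8, 673.1 and 1472 normalized counts in AI and at 165.3, 361.8 and 486.9 in young rats (0.89, SE 0.26), and the erythrocyte anion exchanger Slc4a1 differed by 1.05 (SE 0.39). The other 2 were Alas2, the first enzyme of heme synthesis in red cells, with 0.36 (SE 0.29), and Ly6g6e with -0.70 (SE 0.39). The summed level of the 4 ran from 252.3 to 1512 in AI and from 207.4 to 536.9 in young rats, S100a8 and S100a9 of neutrophils had medians under 5 in both, and the part of blood in the immune gene groups was not tested.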

How the data were processed

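Poly-A RNA of CA1, CA3 and DG was sequenced on the Ion Proton, and 1 table of 26689 genes and 102 libraries was used. The authors used TopHat2 and Bowtie2 for alignment to rn5 and featureCounts 1.4.4 for counting per gene, and they divided by DESeq2 1.10.1 size factors (per the study's methods and the submitters' processing notes), so the deposited values are a signal in normalized counts. Dividing by each library's smallest step gave whole reads for 100% of the values, and edgeR 4.0.16 and DESeq2 1.42.0 were run on these reads as alternatives. Of the genes, 4719 carry no symbol and are not named here, and 1 further gene is not reported here. Symbols that occur under several identifiers were tested per identifier. Strand use in counting is not given in the sources used here.

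The main test was limma 3.58.1 (R 4.3.3, eBayes with trend) on log2(value + 1), restricted to genes whose mean was 5 or more, and a call needed a Benjamini-Hochberg adjusted p under 0.05. The same test was used for AI against AU, for DG minus the mean of CA1 and CA3 within each rat, and for the interaction with the identifier series. Subfields of a rat were paired by the rat number in the labels.

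Genes were named as the 12 of lowest adjusted p under 0.05 in each direction, up to 5 members of each of 47 lists under 0.05 and up to 2 others with the smallest p, every member of 3 lists of the study, up to 6 genes from each other test and a set of marker checks. Other genes were named after their values were seen: those called by an alternative, those that did not overlap within both series, and further members of the lists. The members and lists were chosen with earlier results of these data known. Promoters are RefSeq's on GRCr8, 1 per gene, and were searched on both strands over 250 bases. Cdh1 is named without a promoter. Scripts used Python 3.11.15, pandas 2.3.3, numpy 2.4.6 and matplotlib 3.10.9. Other settings tried were pseudocounts of 0.5 and 5, a minimum mean of 20 or none, TMM rescaling, each series alone or as a covariate, 1 fit of all 34 DG libraries, edgeR, DESeq2 and leaving out each library. Leaving out the 2 libraries of low granule score was added after the data were seen.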

Additional observations from a re-analysis of the deposited data

Results flagged for a closer look

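Each value below is the gap between the outermost young library and its nearest neighbour as a share of the range of the 10 young libraries, over 94 values examined, of which 9 were outlying. Chance gives about 1 in 20 such groups. Young rat R9881 stood apart with the lowest score for granule neurons of DG (0.727) and the highest scores for thalamic neurons (0.565), mossy cells (0.532), oligodendrocyte precursors (0.513) and immature granule neurons (0.483), and with the lowest level of Pcdhb15, a beta protocadherin (0.524). Young rat R2221 had the lowest RT1-Db1 (0.711) and the lowest Stmn2 (0.578). Young rat R9877 had the lowest Psmb9 (0.555).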

How the results depend on the processing

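The number of genes higher in AI rats, 2 with limma, was 17 with DESeq2, 7 with edgeR, 8 with the identifier series as a covariate, 9 in 1 fit of the 34 DG libraries, 5 in the R9 series alone, 0 in the R1-R2 series alone and 1 with no filter on low values. Genes lower numbered 2 with DESeq2, 1 in R9 alone and 0 otherwise. Each series holds fewer rats than the whole set, and the cause of these moves was not tested. Leaving out 1 library gave 1 to 10 genes higher and 0 lower, with 10 without AI rat R2233, 7 without AI rat R1931 and 3 without AI rat R2235, and 735 to 1843 genes at an unadjusted p under 0.05 against 1097 with all libraries. The R1-R2 series alone gave 535. For the DG difference beyond CA1 and CA3, genes at an unadjusted p under 0.05 numbered 839 with rats as the replicate block, 487 with no replicate block and 494 in R1-R2 alone, and none passed adjustment in any of these. For AI against AU they numbered 287, and 457 with the series as a covariate. Over the 74 single genes followed, no direction reversed: of 1628 values with 1 library left out, 15 lost and 14 gained the call, and of 883 values under the other alternatives 4 lost and 37 gained it. The median log2 difference of all genes was -0.0066 with the deposited scaling and -0.0129 with TMM rescaling.

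The precision of low genes is limited by reads: a DG library of these groups held at least 4478984 (AI rat R2233) and at most 18739670 (young rat R1923) of them. The 2 libraries named above carry weak DG markers, what the series stand for is not given in the labels, and values are relative within a library.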

Other observations

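Beside the groups described above, several further lists held more genes higher than lower in AI rats at an unadjusted p under 0.05. Of 87 respiratory chain genes, 8 (9.2%) had an unadjusted p under 0.05 higher in AI and 0 lower, with a median log2 difference of 0.07. Of all genes, 3.95% were higher and 2.82% lower at that level. Atp5j2, a subunit of ATP synthase, differed by 0.41 (SE 0.13) and Ndufs7, a subunit of complex I, by 0.49 (SE 0.17). The median of that list was -0.08 in CA1 and -0.13 in CA3, where 5 and 7 genes were lower at an unadjusted p under 0.05. Of 21 cholesterol and lipid supply genes, 5 (23.8%) were higher and 0 lower, with a median of 0.13. Among 33 Wnt signalling genes, Wnt3, Wnt7a and Sfrp1 were higher (9.09%) and 1 gene was lower (3.03%), beside 3.95% and 2.82% of all genes, and the list's median was 0.02. Sfrp1, a secreted Wnt antagonist, was at 14.8, 29.0 and 44.2 normalized counts in AI and at 4.76, 16.5 and 47.5 in young rats (0.82, SE 0.30).

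Vessel genes were examined as well. Of 14 endothelial markers 3 (21.4%) had an unadjusted p under 0.05 higher in AI and 0 lower, with a median of 0.15. Vwf, the von Willebrand factor, differed by 0.66 (SE 0.23). Of 9 pericyte and smooth muscle genes, 13 meningeal fibroblast genes and 18 basement membrane genes none did with limma, with medians of 0.06, 0.10 and 0.02. Of 20 myelin genes and 14 oligodendrocyte precursor genes none did, with medians of 0.03 and 0.14. Of 20 cytokine and receptor genes, 2 were higher (10%) and 2 lower (10%). Gpr183, an oxysterol receptor that guides immune cells, was among the higher ones (1.06, SE 0.31). Of 18 beta protocadherins 3 (16.7%) were higher and 0 lower, and reads may be shared within that cluster. Of 22 interneuron genes 2 were higher (9.09%, median 0.12). Of 21 heat shock and unfolded protein genes 1 was higher (4.76%, median 0.04), and of 13 glucocorticoid response genes 1 was lower (7.69%, median -0.07). For the heat shock list that share is near the 3.95% of all genes, and for the glucocorticoid list it is a single gene. No gene had an unadjusted p under 0.05 with limma among growth factors, senescence genes or markers of CA1, CA3 and CA2, mossy, choroid plexus, ependymal and thalamic cells, whose medians lay between -0.15 and 0.06. No gene named in these last paragraphs passed adjustment with limma.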
